A study of Mus musculus with 6 samples.

Results

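Microtubule-associated proteins were followed from total RNA into RNA co-precipitated with Staufen2 in cultured podocytes. The set comprised 10 genes, taken from a given list (Map1a, Map1b, Map1s, Map2, Map4, Map7, Clasp1, Clasp2, Tppp and Stmn1), of 19938 genes measured. Each gene was represented by 1 probe set with a single gene symbol, the one with the highest mean over the 6 arrays. The members were selected on their function with the pulldown minus input differences of these same arrays already known. Those differences are therefore given here as a description. The members' calls in the fit over all genes are counted once, beside the share of all genes called, and nothing is supported with them.

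Podocytes cover the capillaries of the kidney filter, and their major processes, unlike the actin-based foot processes, contain microtubule bundles. Microtubules are hollow polymers of tubulin dimers, and the proteins bound along them or at their ends set how long they last and where they grow. The MAP1, MAP2/MAP4 and MAP7 families bind the lattice, CLASP proteins promote rescue and stabilise growing ends, TPPP bundles microtubules, and stathmin binds free tubulin dimers and favours disassembly. Staufen2 binds double-stranded stretches of RNA and takes part in mRNA transport, and Map1b mRNA has been described among Staufen cargoes in neurons.

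The cells were an immortalized mouse podocyte line, grown at a permissive temperature with gamma-interferon and differentiated at a higher temperature without it; all groups share this single line. The input group comprised 3 samples of total RNA and the Staufen2 pulldown group 3 samples of RNA that an anti-Staufen2 antibody brought down from cytoplasmic extract on protein G beads. Each array was labelled from 100 ng of RNA, so the values show each RNA's share and not how much RNA was recovered. A control-antibody pulldown was not analysed here, and a higher value describes recovery relative to input, not binding as such.

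The 6 arrays had log2 medians of 6.53 to 6.54, and the median of all values was 6.54. Values near or below it can be background. The labels do not say that replicates came from separate cultures, so standard errors and p-values reflect the spread of these samples alone, which may be technical. Arrays give no read depth, and their number limits the precision. Of the 12 podocyte markers measured, 8 were above the median in the input. Among them were Wt1 (9.57), Synpo (8.29) and Cd2ap (11.98), whereas Nphs1 (6.30), Podxl (6.04) and Tcf21 (5.91) were below it (log2 levels). Of 10 neuronal markers 2, Syn1 and Elavl3, were above the median in the input. In the pulldown 2 of the 10 were called higher and 1 lower, where 31.3% and 17.3% of all genes were. The summed linear level of all 10 was 762 to 773 on the input arrays and 763 to 806 on the pulldown arrays. The part of these markers in the results was not tested. Of the markers listed for mesangial cells and fibroblasts 5 of 9 were above the median in the input (Acta2 at 13.57 and Pdgfrb at 11.45, but Pdgfra at 6.07 and Lum at 4.44). Of those for tubular and parietal cells 6 of 10 were (Pax8 at 11.39, but Umod at 5.55), of the endothelial ones 3 of 8 and of the immune ones 3 of 8. The mRNA of Stau2 itself stood at 10.78 ± 0.018 in the input and 10.75 ± 0.018 after pulldown (log2 level, mean ± SD, n = 3; limma adjusted p = 0.52), and its difference was -0.13 (adjusted p = 0.0052) after cyclic loess scaling.

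Most of the listed mRNAs made up a larger part of the pulldown than of the input, and stathmin mRNA a smaller part. In 8 of the 10 genes all 3 pulldown arrays lay above all 3 input arrays, as they did in 36.4% of all genes. In 1 gene, Stmn1, all 3 lay below, as in 19.6% of all genes, and in Map1s the groups overlapped. Together, the groups were apart in 9 of the 10, as in 55.9% of all genes. The same 8 genes were higher and the same 1 was lower at a Benjamini-Hochberg adjusted p under 0.05 in limma's moderated test over all genes, where 31.3% of all genes were higher and 17.3% lower, 48.7% in all. Since the members were chosen with this contrast known, nothing is read from these counts. The median log2 difference of the 10 genes, pulldown minus input, was 0.64, against 0.04 for all genes, many of them dim. Above the median level it was 0.80 for the 8 listed genes, 0.34 for the other microtubule genes described below and 0.09 for all genes.

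**Figure D1:**
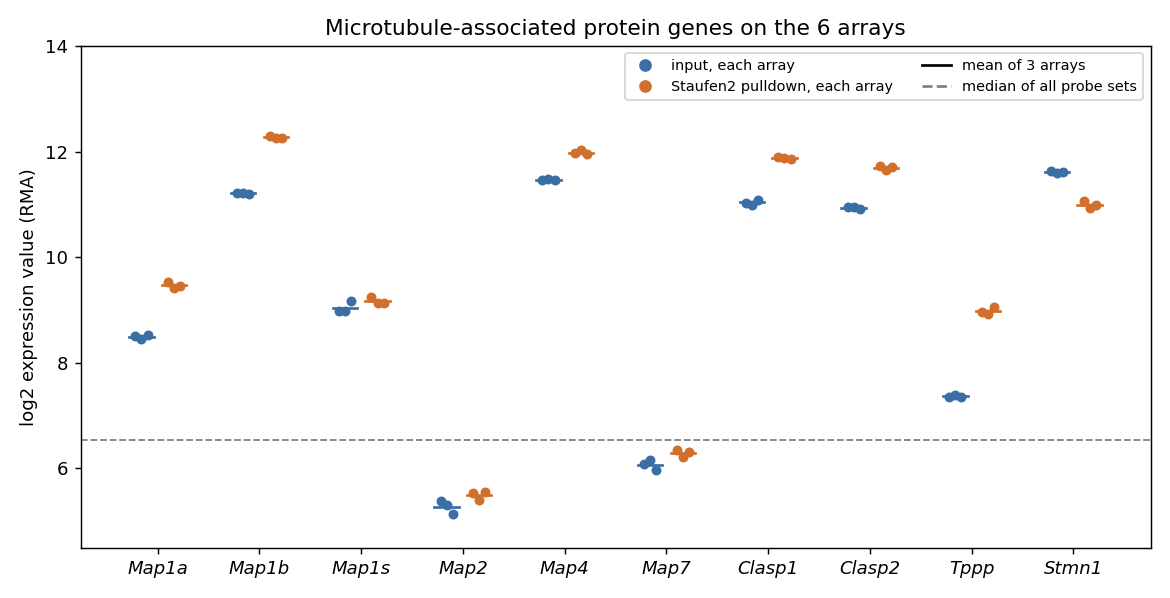
Log2 expression values of the 10 listed genes, with 1 point per array, a bar for the mean of 3 arrays in each group and a dashed line at the median of all probe sets (6.54). Map1b, Map1a, Clasp1, Clasp2, Map4 and Tppp have all pulldown points above the input points, Stmn1 has them below, and Map2 and Map7 lie under the dashed line in both groups.

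Tppp, the tubulin polymerization promoting protein known from oligodendrocytes, had the largest difference of the set. Its log2 values were 7.35, 7.39 and 7.36 in the input and 8.96, 8.92 and 9.05 in the pulldown. The groups were far apart, and no array stood between them. The pulldown was higher by 1.61 ± 0.040 (log2 difference ± SE, 95% interval 1.51 to 1.70), which is 3.04-fold and the 6th largest positive difference among the 19938 genes. The input value exceeded the median of all probe sets by 0.83.

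The MAP1 family encodes large proteins that are cleaved into a heavy chain and a light chain. Map1b, the member prominent in growing axons, stood at 11.21, 11.22 and 11.21 in the input and at 12.30, 12.26 and 12.26 in the pulldown. All pulldown arrays were high and nearly equal, with an SD of 0.025 against 0.0058 in the input. The difference was 1.06 ± 0.027 (log2, SE; 95% interval 1.00 to 1.13), or 2.09-fold. Map1a, the member typical of mature neurons, had log2 values of 8.52, 8.44 and 8.52 in the input and 9.53, 9.43 and 9.45 in the pulldown. Here too the groups were apart, by 0.98 ± 0.039 (SE), or 1.97-fold. The intervals of Map1a and Map1b overlapped, and their differences lay 0.09 ± 0.047 apart (SE combined from both genes).

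Map1s, the short and widely expressed member, did not share this. Its log2 values were 8.98, 8.99 and 9.17 in the input and 9.25, 9.14 and 9.13 in the pulldown. The groups overlapped because input replicate 3 was above 2 of the pulldown arrays. The difference was 0.13 ± 0.059 (95% interval -0.01 to 0.27). It was 0.19 without input replicate 3 and 0.02 after cyclic loess scaling. Map1s lay 0.94 ± 0.065 below Map1b and 0.85 ± 0.071 below Map1a in its log2 difference.

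The light chain 3 genes, named for co-purification with MAP1 but encoding autophagy proteins, fell in the pulldown. Map1lc3a stood at 9.92 ± 0.082 in the input and 9.14 ± 0.14 after pulldown (log2 level, mean ± SD, n = 3), a difference of -0.78 ± 0.073 (limma adjusted p = 5.7e-05). Map1lc3b went from 12.36 ± 0.045 to 12.06 ± 0.030, a difference of -0.29 ± 0.034 (limma adjusted p = 0.00020). In both genes all pulldown arrays lay below all input arrays. Map1a was thus apart from Map1lc3a by 1.76 on the log2 scale of the differences, and Map1b from Map1lc3b by 1.36.

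Map4, the main structural MAP outside neurons, was a bright transcript with a moderate difference. Its log2 values were 11.45, 11.48 and 11.46 in the input and 11.97, 12.02 and 11.95 in the pulldown. All pulldown arrays were higher, by 0.52 ± 0.030 on average (SE), or 1.43-fold. A second Map4 probe set, listed with a single accession, was dim (input 6.05, pulldown 6.30), and averaging both gave 0.38. Map2, the dendritic relative of Map4, stood at 5.38, 5.30 and 5.13 in the input and 5.53, 5.41 and 5.55 in the pulldown. It lay under the median of all probe sets on every array, where signal can be background. Its difference was 0.23 ± 0.068, and 0.16 to 0.28 when any 1 array was left out. Mapt, encoding tau of the same family, also lay below the median of all probe sets, at 6.38 ± 0.069 in the input and had a difference of 0.08 ± 0.039 that did not pass (limma adjusted p = 0.12), except without input replicate 2 (0.12, adjusted p = 0.013).

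Map7 encodes ensconsin, which recruits kinesin-1 to microtubules. Its log2 values were 6.08, 6.15 and 5.97 in the input and 6.35, 6.22 and 6.32 in the pulldown. The groups did not overlap, but every array lay under the median of all probe sets, so the difference of 0.23 ± 0.055 carries little information on level. Map7d1, the relative that was well expressed here, rose from 10.05 ± 0.020 to 10.72 ± 0.051, by 0.67 ± 0.034 (limma adjusted p = 2.4e-06). Map7d2 (0.10, adjusted p = 0.070) and Map7d3 (-0.02, adjusted p = 0.51) did not pass limma's test and were both below the median in both groups. Map7d2 passed limma's threshold without pulldown replicate 3 (0.13, adjusted p = 0.028) and with the replicate number as a block (adjusted p = 0.049).

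The CLASP paralogs, plus-end proteins that attach growing microtubules to the cell cortex and the Golgi, had similar values. Clasp1 stood at 11.03, 10.99 and 11.09 in the input and 11.90, 11.87 and 11.85 in the pulldown. Clasp2 stood at 10.94, 10.95 and 10.90 in the input and 11.73, 11.65 and 11.70 in the pulldown. Every pulldown array of either gene was above every input array. The log2 differences were 0.84 ± 0.034 for Clasp1 and 0.76 ± 0.032 for Clasp2, with overlapping intervals and a gap of 0.08 ± 0.047. Ckap5 and Mapre1, named in any case, also rose. Ckap5, encoding the polymerase ch-TOG whose TOG domains resemble those of CLASPs, was higher by 0.85 ± 0.030 (limma adjusted p = 5.4e-07). Mapre1, encoding the end-binding protein that recruits most plus-end trackers, was higher by 0.40 ± 0.034 (limma adjusted p = 3.6e-05).

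Stmn1, encoding stathmin, was the member that was lower in the pulldown. Its log2 values were 11.63, 11.60 and 11.62 in the input and 11.06, 10.93 and 10.99 in the pulldown. The groups were clearly apart, by -0.62 ± 0.038 (95% interval -0.71 to -0.53), or 1.53-fold lower. A second Stmn1 probe set listed with the same accessions differed from the first by at most 0.017 on any array and was not counted again. Of the related genes, Stmn2 fell by 0.47 (limma adjusted p = 0.00044), from 6.35 ± 0.11 to 5.88 ± 0.078, below the median of all probe sets in both groups, and Stmn3 (0.06, adjusted p = 0.22) and Stmn4 (0.08, adjusted p = 0.21) did not pass limma's test.

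In the TPPP family, Tppp and Tppp3 lay on opposite sides. Tppp3, a paralog that also binds tubulin, fell in the pulldown. Its log2 values were 8.38, 8.35 and 8.53 in the input and 7.68, 7.84 and 7.67 in the pulldown. The groups did not overlap, and the difference was -0.69 ± 0.064 (limma adjusted p = 5.7e-05). Tppp and Tppp3 were thus 2.29 ± 0.076 apart in their log2 differences. Tppp2, below the probe-set median in both groups, had a difference of -0.0052 that did not pass limma's test.

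**Figure D2:**
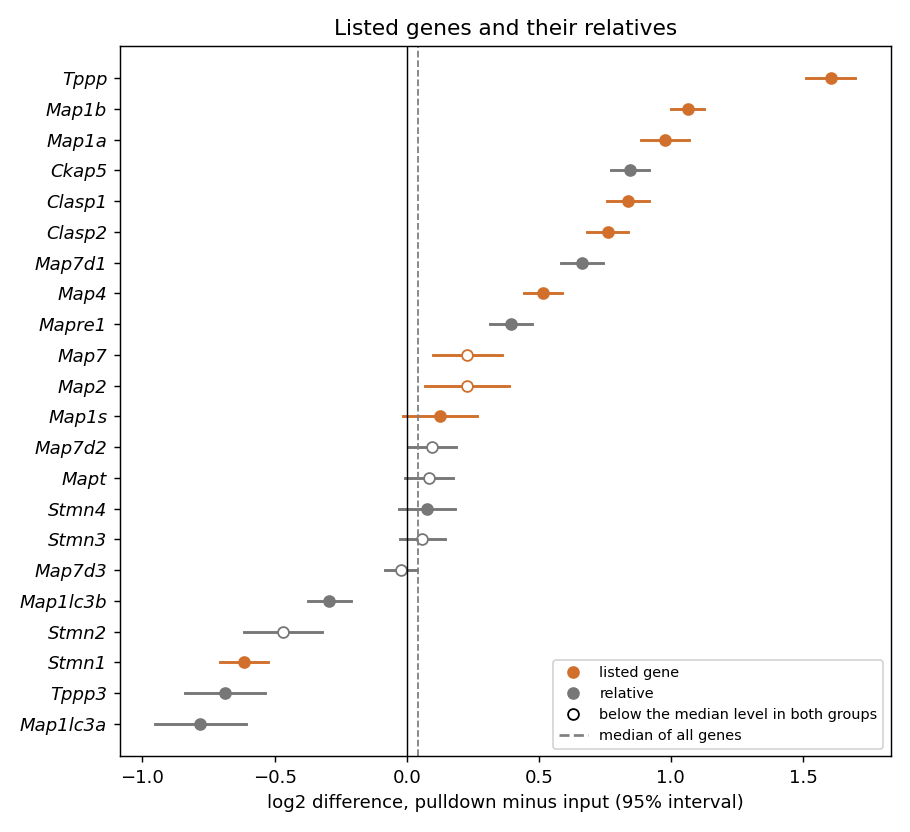
Log2 differences, pulldown minus input, of the 10 listed genes (orange) and 12 related genes (grey), each point with its 95% interval from the fit over all genes; open points are below the median of all probe sets in both groups. Tppp stands alone at 1.61, and Map1b to Clasp2 lie between 1.06 and 0.76. Stmn1, Tppp3, Stmn2, Map1lc3a and Map1lc3b lie below 0, and Map7d3 (-0.02) just below it.

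Ordered by their log2 difference, the genes ran from Tppp through Map1b, Map1a, Clasp1, Clasp2, Map4, Map7, Map2 and Map1s to Stmn1. The 95% intervals of neighbours did not overlap between Tppp and Map1b, Clasp2 and Map4, Map4 and Map7, and Map1s and Stmn1. All other neighbours overlapped, and Map7 and Map2, being near background, have no settled place. Tppp and Map1b were more than 2-fold higher, as were 1.67% of all genes. The 3 genes with the values most like those of Map1b over the 6 arrays, each gene set to its own input mean, were Dclre1a (1.06), Jak2 (1.06) and Setbp1 (1.07), at Euclidean distances of 0.037, 0.037 and 0.039. For Tppp they were Cplane1 (1.56), Alpk3 (1.56) and Sh3pxd2a (1.65), at distances of 0.098, 0.12 and 0.14. These likenesses are over 6 arrays in 2 conditions and describe only the size of the difference.

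The listed genes were then set beside 158 measured genes of 8 other microtubule lists, ordered by function. Of these, 91 rose, 26 fell and 41 did not pass limma's test at an adjusted p under 0.05, and their median log2 difference was 0.21. That is 57.6% higher, where 31.3% of all genes were higher, and 16.5% lower, where 17.3% were. Many of the lists' genes were well expressed. Among the 136 above the median level in the pulldown or the input, 88 (64.7%) rose and 25 (18.4%) fell, where 45.9% and 26.8% of all 12162 such genes did. No test compares the lists with other genes. The calls over all genes depended on scaling, with 6246 higher and 3459 lower as deposited and 5127 and 4565 after cyclic loess, and the other microtubule genes stood at 80 and 34 after it.

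Plus-end tracking proteins and their cortical partners had 20 of 23 genes higher, 0 lower and 3 not past limma's test, with a median of 0.67. The lowest difference in this list was 0.02, so no gene was lower at an unadjusted p either. The 3 genes named here and in each list below have the smallest adjusted p among those above the median level. The counts here and below are to be read beside all genes, of which 31.3% were higher and 17.3% lower. Of all genes above the median level 45.9% were higher and 26.8% lower. Nav1, a neuron navigator that follows growing ends, rose by 1.25 ± 0.037 (log2 difference, SE; limma adjusted p = 3.1e-07), and Ckap5 was the third beside it. Ppfia1, the scaffold liprin-alpha1 at the cell cortex and no tracker itself, rose by 1.17 ± 0.030. Spindle proteins had 14 of 18 genes higher and 2 lower (median 0.69). Ska2 of the kinetochore rose by 0.88 ± 0.033, the spindle assembly factor Tpx2 by 0.76 ± 0.029 and Numa1, which anchors spindle poles, by 0.76 ± 0.029. Kinases that act on microtubule-associated proteins had 15 of 19 higher and 1 lower (median 0.47). Mast4, a microtubule-associated kinase, rose by 1.02 ± 0.028, Taok1, which acts on MARK kinases, by 0.75 ± 0.031 and Dyrk1a, a kinase of tau and MAP1B, by 0.66 ± 0.025.

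Stabilising and lattice-binding proteins went both ways, with 18 higher, 7 lower and 9 not past limma's threshold among 34 (median 0.12). Mtus1 rose by 0.99 ± 0.029, Eml4, a lattice-binding protein, by 0.74 ± 0.029 and Dclk1, a doublecortin-like kinase, by 0.67 ± 0.028. Minus-end binding and nucleation proteins had 10 of 21 higher and 5 lower, with a median of 0.09 that turned to -0.02 after cyclic loess. All 21 were above the median level. Their 47.6% higher and 23.8% lower were near the 45.9% and 26.8% of all such genes, whose median was also 0.09. Camsap1 and Camsap2, which hold free minus ends, rose by 1.05 ± 0.030 and 1.01 ± 0.027, and the centrosomal Cdk5rap2 by 0.70 ± 0.026. Tubulin modifying enzymes had 10 of 26 higher (38.5%) and 6 lower (23.1%), with a median of 0.08, not far from the 31.3% and 17.3% of all genes. Ttll4, a glutamylase, rose by 1.05 ± 0.036 and Agtpbp1, which removes glutamates, by 0.60 ± 0.032, while the deacetylase Sirt2 fell, at -0.74 ± 0.030.

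Tubulin folding cofactors were the list with more genes lower than higher, 4 against 2 of 7 (median -0.12), and 5 against 0 after cyclic loess. Tbcb and Tbca, which bind alpha and beta tubulin, had log2 differences of -0.99 ± 0.046 and -0.86 ± 0.034, and the small GTPase Arl2 -0.80 ± 0.031. Limma's adjusted p of these genes lay at or below 1.5e-06. Destabilising and severing proteins mostly did not pass, with 2 of 10 higher, 1 lower (Stmn2) and a median of 0.07. Katnal1, of the katanin family, rose by 0.74 ± 0.052 (limma adjusted p = 1.1e-05) and Fignl1 by 0.29 ± 0.036 (adjusted p = 0.00028). Katna1, the catalytic subunit of katanin, did not pass limma's test (0.11, adjusted p = 0.055). It did without pulldown replicate 1 (0.15, adjusted p = 0.011) and when dim genes were filtered out (adjusted p = 0.039). After cyclic loess the Katna1 difference was gone (-0.00077, limma adjusted p = 0.99).

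**Figure D3:**
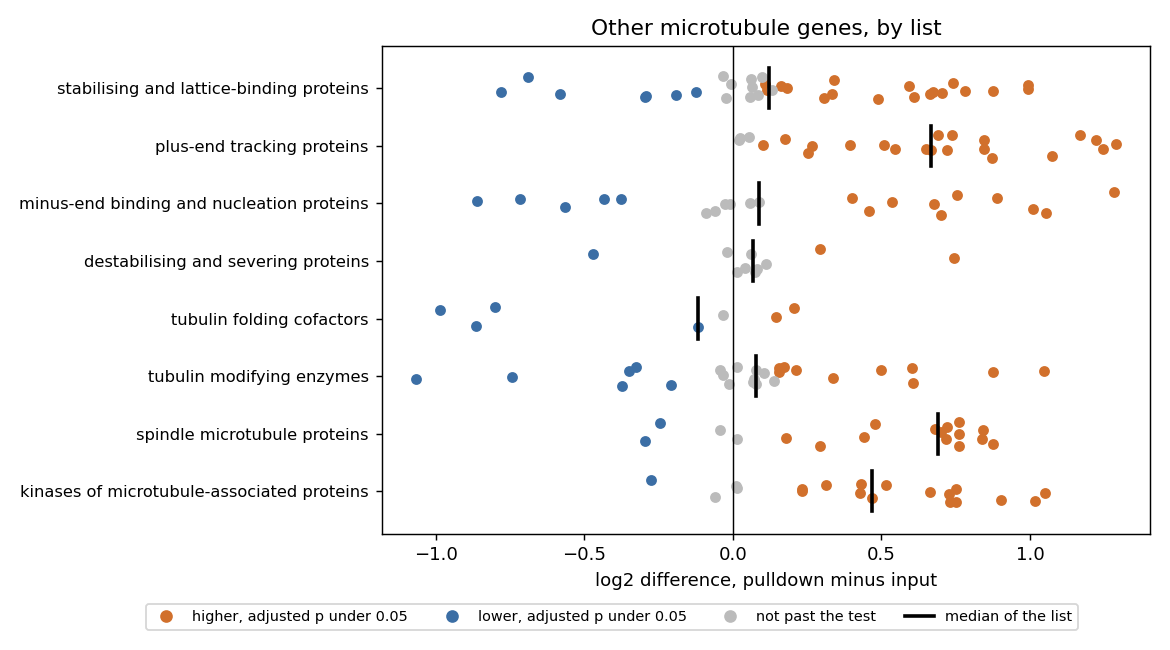
Log2 differences, pulldown minus input, of 158 genes in 8 microtubule lists, 1 point per gene, spread vertically only for legibility, coloured by limma's call at an adjusted p under 0.05, with a bar at each list's median. Plus-end genes (median 0.67) and spindle genes (0.69) lie mostly to the right, and tubulin folding cofactors (-0.12) have 3 genes near or beyond -0.80.

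Over the coding genes on the arrays, the difference was related to genomic span, so the spans of the listed genes are given beside their values. Span was taken from the RefSeq gene table of assembly GRCm38.p6 and includes introns. It does not measure the length of the spliced RNA, and transcript lengths were not used here. A gene's place in its span class therefore does not show whether its difference is unusual for the length of its RNA. Among the 11768 coding genes above the median level, the median log2 difference was -0.10 for spans under 10 kb, 0.05 for 10 to 30 kb, 0.27 for 30 to 100 kb, 0.42 for 100 to 200 kb and 0.40 for 200 kb or more. Over all 18553 coding genes, dim ones included, the medians were smaller in size, at 0.0074, 0.04, 0.12, 0.21 and 0.13 in the same order. The smallest class was then not below 0, and in neither set was the widest class the highest. Spearman's rank correlation was 0.36 across all coding genes, 0.48 across those above the median level and 0.60 across the 136 of the other microtubule lists. Genes are not independent replicates, share the same 6 arrays, and no p is given.

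The listed genes spanned 5.52 to 267 kb. Stmn1 (5.52 kb), Map1lc3a (1.71 kb), Map1lc3b (8.32 kb) and Tppp3 (3.93 kb), all lower in the pulldown, fell in the smallest class. Small span and a lower value did not always go together. Stmn3 (8.04 kb) had a difference of 0.06, and Stmn2 (52.1 kb) and Tbca (54.0 kb) were lower, at -0.47 and -0.86. Stmn3 and Stmn2 lay below the median of all probe sets in both groups, where signal can be background, whereas Tbca lay above it. Map1s (11.6 kb), Map1a (21.2 kb) and Tppp (26.3 kb) shared the class of 10 to 30 kb, whose upper quartile was 0.28. Map1s at 0.13 was inside its quartiles, whereas Map1a at 0.98 and Tppp at 1.61 were far above them, and Tppp was 1 of 30 genes of that class that were at least 2-fold higher, among 3912. Map1b (95.1 kb) at 1.06 was above the upper quartile of its class (0.55). Clasp2 (180 kb, 0.76) was just above and Map4 (154 kb, 0.52) below the upper quartile of theirs (0.70), while Clasp1 (220 kb, 0.84) was above the upper quartile of the widest class (0.75). Across the 10 genes Spearman's correlation with span was 0.14, and across the 8 above the median level, without Map2 and Map7, it was 0.33. Both values are a description of few and chosen genes. The part of RNA size in these differences was not tested.

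**Figure D4:**
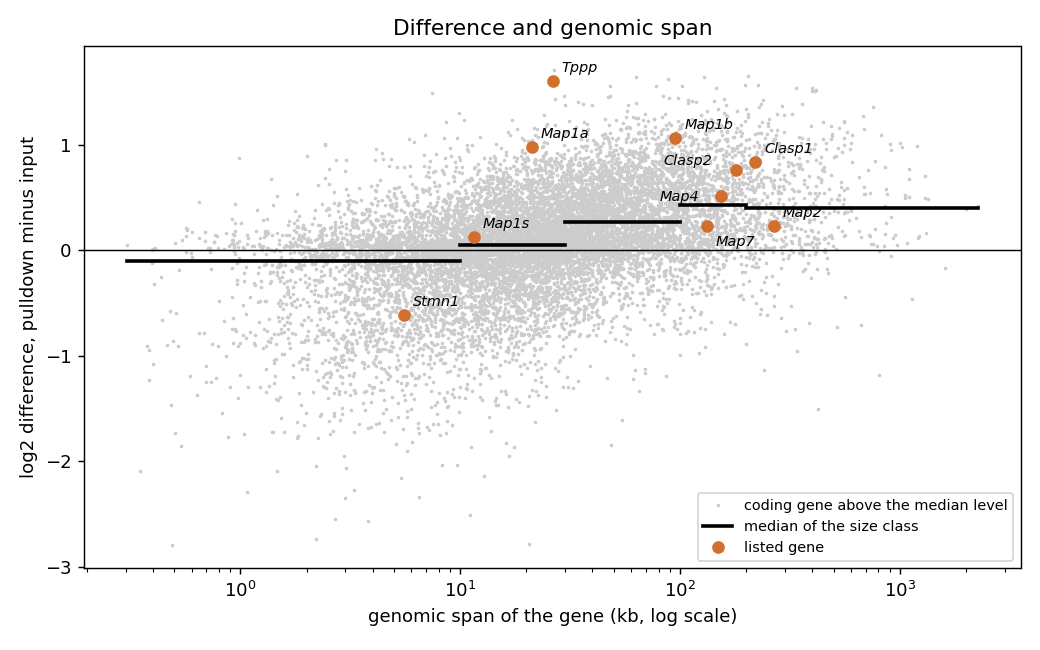
Log2 difference, pulldown minus input, against genomic span in kb on a log axis for the 11768 coding genes above the median level (grey), with black bars at the median of each of 5 size classes and the 10 listed genes in orange (Map2 and Map7 are below the median level and are shown for completeness). Tppp at 26.3 kb and Map1a at 21.2 kb stand well above the bar of their class (0.05), and Map1s at 11.6 kb lies close to it.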

How the data were processed

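RNA of 3 input and 3 Staufen2 pulldown samples was measured on whole-transcript arrays. The authors deposited 1 log2 value per probe set and array. Per the submitters' processing notes RMA and limma were used, with versions and genome build not given in the sources used here. Quantile normalization, usual in RMA, makes each difference relative to the remaining RNAs. Of 35556 probe sets, 21789 had 1 gene symbol, 1621 several and 12146 none listed. One probe set per gene (highest mean of the 6 arrays) left 19938 genes, of which 19856 matched the RefSeq gene table (GRCm38.p6) by Entrez identifier.

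Differences came from limma 3.58.1 in R 4.3.3 (2-sided, moderated variances, no covariates), adjusted by Benjamini-Hochberg over all genes and called under 0.05. SEs are moderated. An exact permutation test of 3 against 3 cannot give a p below 0.10. Data were simulated for 19938 genes with independent normal noise at the moderated spread of these arrays, and 50 genes were moved at each size. The fit called 80% of genes moved by 0.25 and all moved by 0.5 or 1, with 9 false calls. Far more genes are called in the real data, and scaling was not simulated. These counts are therefore not error rates of the real calls.

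The members and lists were chosen with earlier results of these data known. Genes named were the 10 members, Stau2, 12 relatives, the 3 smallest adjusted p above the median level in each of 8 lists, and the 3 genes nearest Map1b and Tppp. Tppp2 was named beside these. Marker lists covered podocytes (12 measured, 9 higher, 0 lower), neurons (10, 2 and 1) and mesangial cells and fibroblasts (9, 2 and 2). Others covered endothelium (8, 3 and 1), tubular and parietal cells (10, 4 and 3) and immune cells (8, 0 and 3). Of all genes 31.3% were higher and 17.3% lower, and no test compares the marker lists with them. Alternatives were a replicate block, cyclic loess, a filter on dim genes, averaged probe sets per gene, an intensity trend, centring on the brightest probe sets (above the 75th percentile) and leaving out each array. Protein lengths were not used here; genomic span replaced them after the data were seen. Figures used matplotlib 3.10.9.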

Additional observations from a re-analysis of the deposited data

Results flagged for a closer look

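A probe set of Map4 that the comparison did not use was brighter on the pulldown arrays. It was higher by 0.24 ± 0.049 (log2 difference, SE; limma adjusted p = 0.0084 over all probe sets), from 6.05 to 6.30, both below the median of all probe sets (6.54). No group has enough arrays for a search for single arrays far from the others.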

How the results depend on the processing

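The median log2 difference of the listed genes, 0.64, stood at 0.54 after cyclic loess, 0.60 when arrays were centred on their brightest probe sets, 0.57 with averaged probe sets per gene, and 0.80 among the 8 genes above the median level, where Map2 and Map7 drop out. It lay between 0.63 and 0.65 when any 1 array was left out. All 10 genes kept their sign under every alternative run that measured them. Map1s went from 0.13 to 0.02 after cyclic loess, and Map4 from 0.52 to 0.38 with averaged probe sets. With 1 array left out, 7 to 8 listed genes were called higher and 1 lower. Map2 lost its call without input replicate 2 or 3 and without pulldown replicate 1 or 3. Map1s passed limma's threshold only without input replicate 3. Of the other microtubule genes, 86 to 91 were called higher and 23 to 25 lower with 1 array left out. Of all genes, 8873 to 9288 were then called, against 9705 with all arrays. Same-numbered samples did not deviate together (correlations of 0.024, 0.11 and -0.060 across genes), so the numbers are taken as names only. With the replicate number as a block, 9714 genes were called, among them 8 listed genes higher and 1 lower, and 91 and 25 of the other microtubule genes. The call of Map7d2 was the only one of a named gene that the block changed. The planned comparison with protein length was not run. Differences under about 0.25 and genes below the median of all probe sets are at the limit of what 3 arrays a group resolve.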
